A study of Saccharomyces cerevisiae with 6 samples.

Results

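Ribosome assembly factors are the proteins that build the ribosome without staying in it. In budding yeast many of them carry names of a few families (UTP, NOP, NOC, NSA, RRP, IMP and RLP). These names record how they were found, such as nucleolar protein or ribosomal RNA processing. The probe annotation of the array names 62 genes with 1 of these prefixes followed by a number, of 5449 Saccharomyces cerevisiae genes tested, once the inner-membrane protease genes IMP1 and IMP2 were dropped. They are 18 UTP, 18 RRP, 17 NOP, 3 NOC, 2 NSA, 2 IMP and 2 RLP genes. Each had a single probe set of the kind designed for 1 transcript, so no choice between probe sets was needed, and the rule used names only and no measured value.

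Total RNA of 6 samples was hybridised to Affymetrix arrays. The 3 deletion samples were of strain NGY051, in which a kan marker replaces PMR1, the gene of the Golgi pump for calcium and manganese. The 3 wild-type samples were of its parent, written as both BY4147 and BY4741 in the labels, a MAT a laboratory strain. The labels give the parent complete deletions of URA3, LEU2, HIS3 and MET15, a background that the deletion strain is given as sharing. On the log2 scale the HIS3 probe set was at 11.56 to 11.58 in the deletion and 11.54 to 11.58 in the wild type. That of LEU2 was at 5.18 to 5.41 and 5.52 to 5.58, and all these values lie above the array background described below. Those of URA3 and MET15 (listed as MET17) were below it on every array. The level of a probe set does not show how much of a gene is deleted, so these values do not decide the genotype. Both strains were sampled while growing exponentially in rich medium that contained 5 mM calcium chloride. The comparison therefore addresses the deletion under calcium supplementation and holds no group without it. Each genotype is represented by 1 named strain, and nothing says whether the samples of a group came from separate cultures. Each p-value is thus set against a sample-to-sample spread that may be no more than technical.

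The ribosome is made in the nucleolus, where RNA polymerase I transcribes a long precursor of the ribosomal RNAs. Around its first part the small subunit processome assembles from the U3 small nucleolar ribonucleoprotein (snoRNP) and the UTP complexes, and large subunit factors then gather on the part that is left. Helicases, methyltransferases and nucleases, among them the RNA exosome, fold, modify and trim the RNA. In yeast these genes are known as a regulon that is transcribed strongly during fast growth in rich medium and repressed together when growth slows or stress sets in.

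PMR1 itself had levels of 2.79, 3.45 and 3.16 in the deletion arrays and 11.81, 11.79 and 11.84 in the wild-type arrays, on the log2 scale used throughout. The deletion values lie below the array background, taken as the 95th percentile of the S. pombe (fission yeast) probe sets that share the array (4.18 to 4.31 per array). All 62 assembly genes were far above that background on every array, with mean levels of 10.36 to 13.90. The dimmest probe set was that of NOP19 and the brightest that of NOP58, and levels of different probe sets do not rank transcripts. Array medians over the 5498 tested probe sets were 10.34 to 10.39 in the deletion and 10.35 to 10.36 in the wild type.

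The assembly genes differed little in transcript level between the deletion and the wild type. Of the 62, 0 were higher and 1, IMP4, was lower in the deletion (limma, adjusted p under 0.05), which is 1.61% of them. Over all 5498 probe sets, 29.2% passed that test, 17.5% higher and 11.7% lower. At an unadjusted p under 0.05, 1 assembly gene was higher and 9 were lower, 16.1% against 41.9% of all tested probe sets. The count of calls was not stable: other scalings of the arrays or a robust fit called 4 to 9 of the 62 lower, and weighting the arrays by quality called 22 (35.5%, against 45.9% of all), always with 0 higher. All 62 log2 changes lay between -0.16 and 0.11. Their median absolute change was 0.058, against 0.096 over all tested probe sets. Of the 2564 probe sets whose mean level fell within the range of the 62, 30% passed the test, and their median absolute change was 0.086. These probe sets are not matched to the 62 by level, with a median level of 11.46 against 11.79. The part of signal level in the low share of calls was not tested.

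A call that is missing does not show that a level is the same, so the interval of each change was read as well. The 95% intervals of all 62 genes lay within 1.3-fold in either direction, with outer limits of -0.30 and 0.21 on the log2 scale. Of all tested probe sets, 80.2% had such an interval, and 86% of those within the level range of the 62 did. Within a narrower bound of 1.2-fold lay 59 of the 62 (95.2%), against 61.9% and 70.5%, and the 3 outside it were RRP36, RRP7 and NOP53. Both bounds were chosen after the values were seen. The intervals are for 1 gene at a time and are not adjusted for their number. The precision of the 62 genes was close to that of the other genes, with a median SE of 0.045 against 0.048 over all tested probe sets. Changes as small as 0.10 passed the test elsewhere on the arrays, and 241 of the 1605 called probe sets had changes no larger than the 0.16 of NOP53, the largest among the 62. A call also depends on the SE. RPC19, a polymerase subunit gene, passed with a change of -0.12 and an SE of 0.034, while NOP53 at -0.16 with an SE of 0.057 did not. The test could thus miss changes of this size among the 62.

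**Figure D1:**
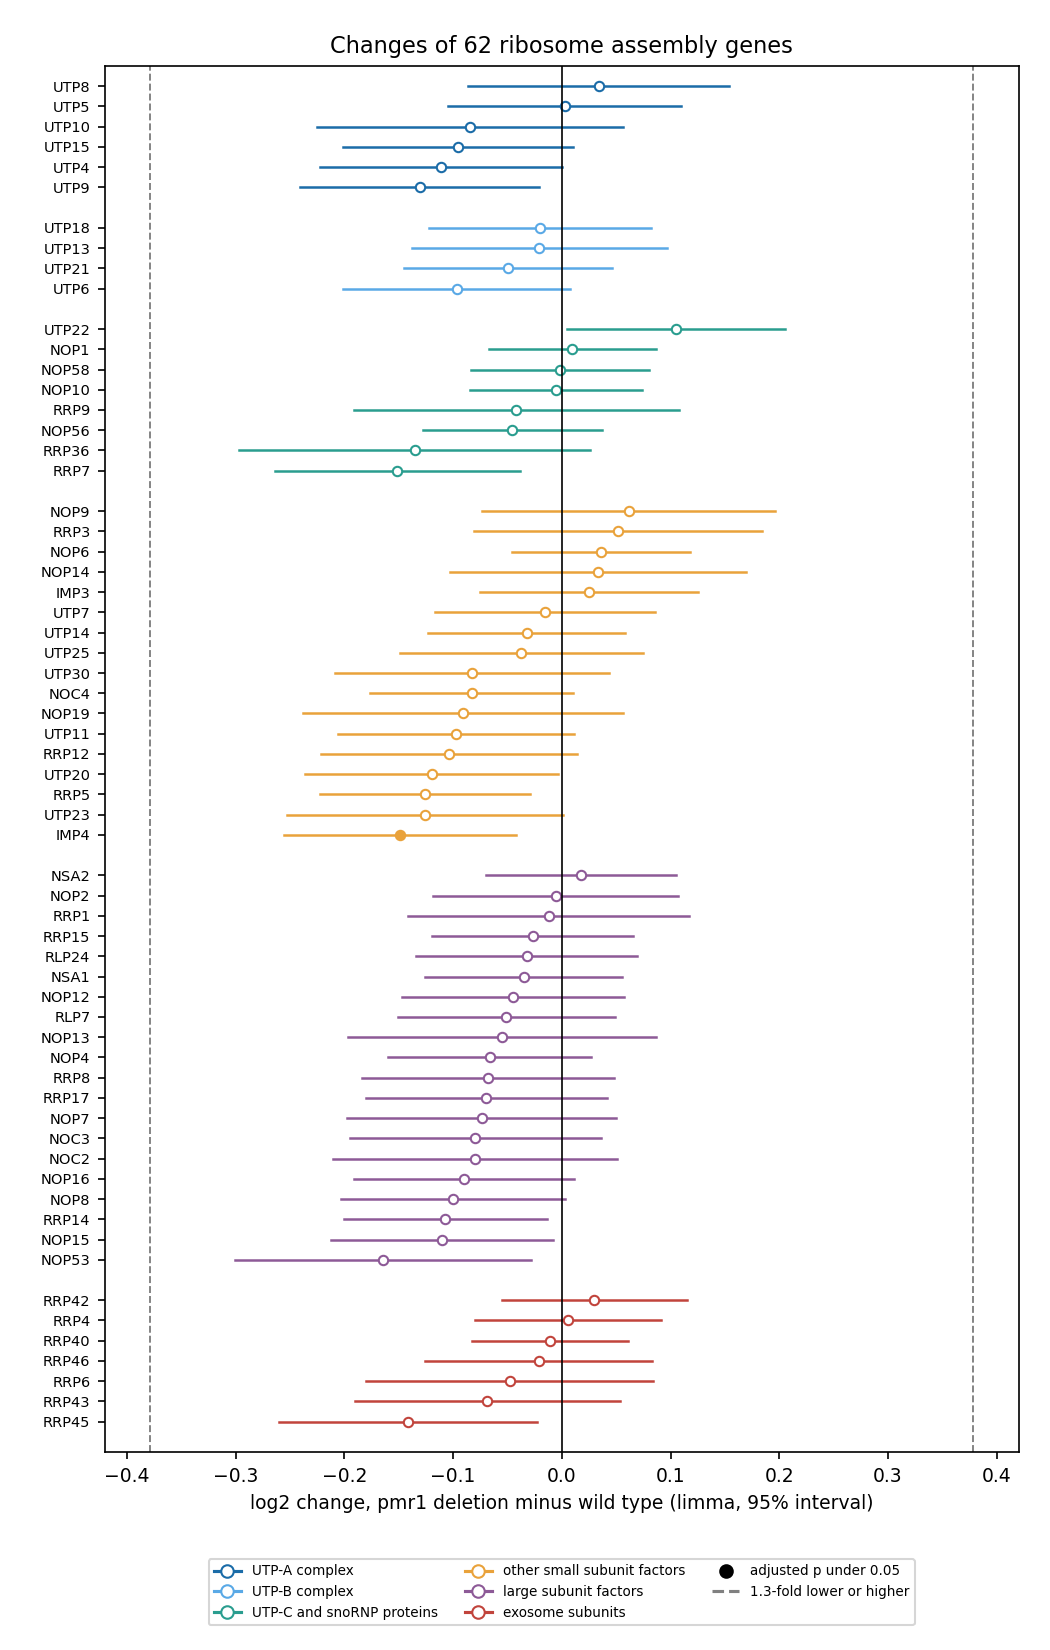
Log2 change of each of the 62 assembly genes, pmr1 deletion minus wild type, with its 95% limma interval, grouped by role; the filled point passed an adjusted p of 0.05 and the dashed lines mark 1.3-fold. Every interval lies between the dashed lines, 52 of 62 include 0, and only that of IMP4 has a filled point.

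**Figure D2:**
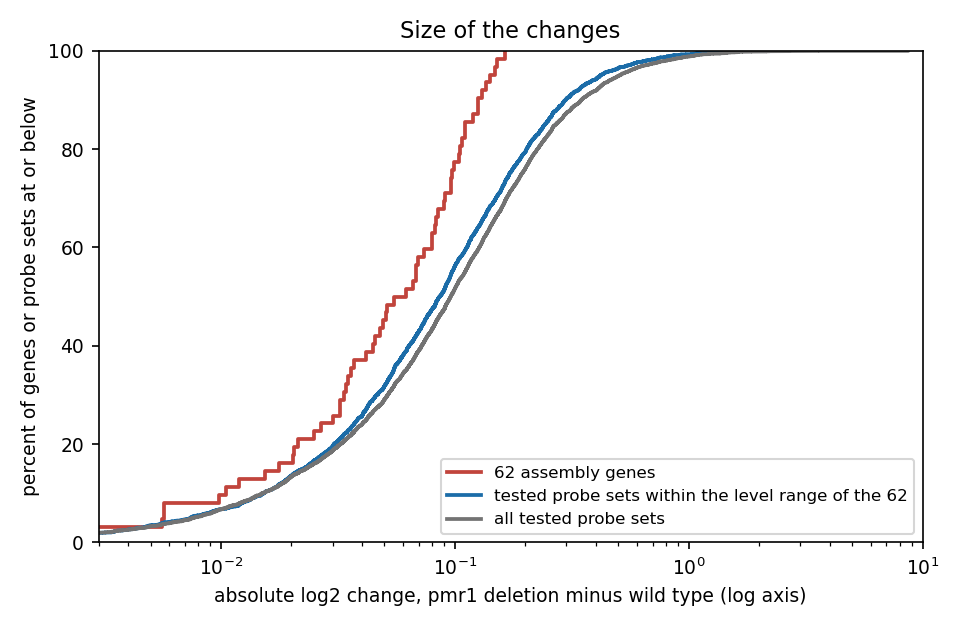
Cumulative percent of genes or probe sets (vertical axis) at or below an absolute log2 change (horizontal log axis), for the 62 assembly genes, for the 2564 tested probe sets within their level range and for all 5498. The curve of the 62 reaches 100 percent at 0.16, where the other 2 are below 100.

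Small as they were, the changes leaned one way: 50 of the 62 log2 changes were below 0, 80.6% against 46.8% of all tested probe sets. The median was -0.050, beside 0.0095 over all. The lean was no larger than the differences between arrays of one strain. Averaged over the 62 genes, the level was 11.86, 11.90 and 11.82 in the deletion arrays and 11.95, 11.86 and 11.92 in the wild-type arrays. The groups overlap, since wild-type replicate 2 lies at the height of the lower deletion arrays. The means were 11.86 ± 0.040 in the deletion and 11.91 ± 0.046 in the wild type (SD, n = 3 each), a difference of -0.052. For 58 of the 62 genes (93.5%) the difference between the group means was smaller than the range of at least 1 group, against 64.4% of all tested probe sets. The larger range of single arrays is a lenient measure for a difference of means.

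The 62 genes moved together from array to array within a strain. Wild-type replicate 2 had the lowest of the 3 wild-type values for 50 of them (80.6%), against 33.4% of all tested probe sets, and its median shift from the mean of the other 2 arrays was -0.070, beside 0.013 over all. Among the 20 large subunit genes it was the lowest for all 20. In the deletion, replicate 3 was the lowest for 48 of the 62 (77.4%, against 50.1% of all) and replicate 2 the highest for 43 (69.4%, against 58.4%), so part of that pattern was shared by the whole array. Without wild-type replicate 2 the median of the 62 was -0.072 and 5 genes were lower past the threshold (IMP4, RRP7, NOP53, UTP4 and NOP15), 8.06% of them against 30.4% of all tested probe sets under the same setting.

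Yeast induces stress genes of the Msn2 and Msn4 regulon when it represses ribosome assembly. Of a list of 20 such genes, 18 were at their wild-type highest on wild-type replicate 2, against 43.7% of all tested probe sets. The mean level of the 20 genes on that list was 9.59, 9.59 and 9.60 in the deletion arrays and 9.70, 10.05 and 9.75 in the wild-type arrays, but the median log2 change of the list was 0.030, so the lower mean of the deletion rests on a few genes with large falls. HSP12, a small heat shock protein gene, had levels of 8.50, 8.65 and 8.45 in the deletion and 10.56, 10.98 and 10.47 in the wild type. HSP26, another of that kind, was at 8.77, 8.69 and 8.63 in the deletion and 10.32, 11.44 and 10.27 in the wild type, and DDR2, a stress-induced gene of unclear function, was at 7.45, 7.54 and 7.27 against 8.57, 9.40 and 8.66. All 3 were highest on wild-type replicate 2, the array on which most assembly genes were at their wild-type lowest. Of the 20 stress genes, 6 were higher and 5 lower in the deletion past the threshold, 55% in all. Over all tested probe sets the share was 29.2%, with 17.5% higher and 11.7% lower. TPS2, of trehalose synthesis, was at 10.36, 10.34 and 10.45 in the deletion and 9.77, 9.91 and 9.77 in the wild type and rose by 0.56 (limma adjusted p = 0.000463), and NTH1, a trehalase gene, rose by 0.43 (adjusted p = 0.00218). The part of this array difference in the small lean of the assembly genes was not tested.

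**Figure D3:**
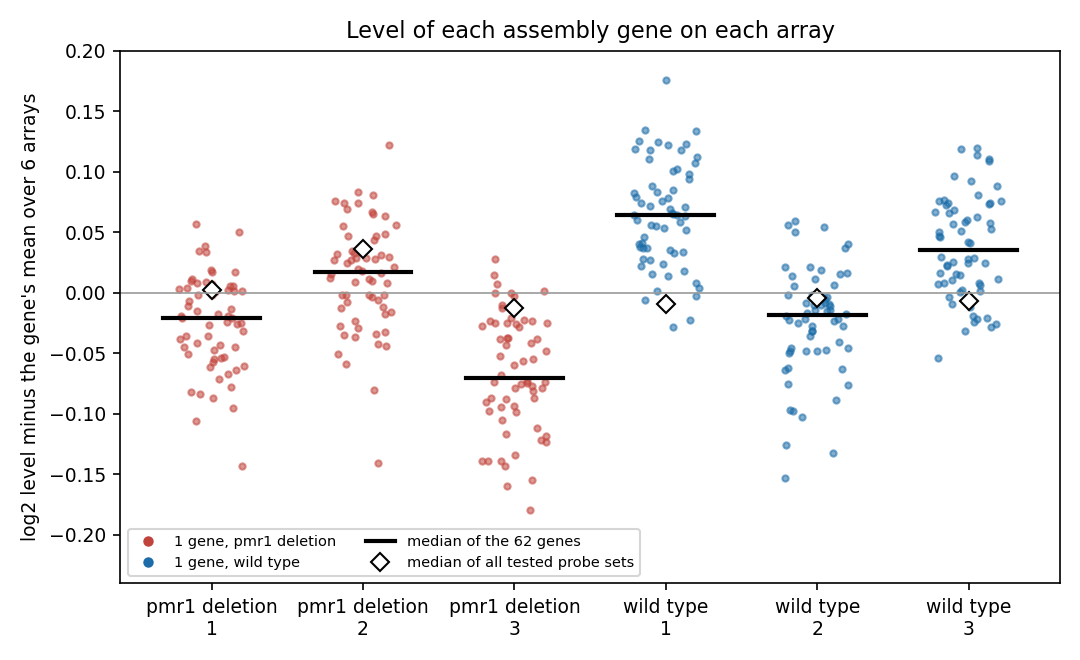
Level of each of the 62 assembly genes on each array, as the log2 level minus the gene's mean over the 6 arrays, with the median of the 62 (bar) and of all tested probe sets (diamond). The median of the 62 is -0.021, 0.017 and -0.070 in the deletion arrays and 0.064, -0.018 and 0.036 in the wild-type arrays, so wild-type replicate 2 sits among the deletion arrays.

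In each group of factors the genes given with their array values below are those with the lowest and the highest log2 change, with NOP58 and NOP19 as the brightest and dimmest and RRP5, RRP14 and NOP15 added for their adjusted p under 0.1. Apart from IMP4, NOP58 and NOP19 they were picked with their values in view.

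The UTP-A complex, also called t-UTP for its link to transcription of the ribosomal DNA, is the first to bind the precursor. None of its 6 genes passed the test, and the median log2 change was -0.090. UTP9, a subunit of that complex, was at 11.95, 12.05 and 11.90 in the deletion and 12.13, 12.08 and 12.08 in the wild type. The groups did not overlap, by a gap smaller than the spread within the deletion, and the change was -0.13 (SE 0.046, limma adjusted p = 0.0752). UTP8, a subunit with a further role in the export of transfer RNA, was at 11.12, 11.20 and 11.08 in the deletion and 11.15, 11.02 and 11.13 in the wild type, with overlapping groups and a change of 0.034 (95% interval -0.086 to 0.15). The genes of UTP4, UTP15, UTP10 and UTP5 had changes between -0.11 and 0.0027.

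The UTP-B complex follows it and bridges the precursor and the U3 snoRNA. Its 4 genes of these families had changes between -0.097 and -0.020, with 0 past the threshold. UTP6 was the farthest, at 11.93, 11.89 and 11.81 in the deletion and 11.96, 11.94 and 12.01 in the wild type, a difference of 0.0088 between the nearest arrays of the 2 strains. UTP18, which carries a motif that recruits the exosome helicase Mtr4, was at 11.47, 11.56 and 11.53 in the deletion and 11.60, 11.53 and 11.50 in the wild type, and the groups overlapped. UTP13 and UTP21, both WD-repeat proteins, had changes of -0.020 and -0.049.

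The next 8 genes encode UTP-C subunits and snoRNP proteins, and they hold both the only gene whose deletion arrays all lay above the wild type and 1 of the lowest. UTP22 was at 11.30, 11.39 and 11.26 in the deletion and 11.24, 11.19 and 11.21 in the wild type, a change of 0.11 (SE 0.042, limma adjusted p = 0.105). RRP7, whose protein binds Utp22 directly in UTP-C, was at 11.69, 11.70 and 11.63 in the deletion and 11.86, 11.74 and 11.87 in the wild type, a change of -0.15 (SE 0.048, adjusted p = 0.0529). The groups of both genes were separate, the 2 partners lay on opposite sides of 0, and neither passed the test. RRP7 was past the threshold under 6 of the 16 alternative settings, all in the same direction, with changes down to -0.19. UTP9 was lower past it under 6 of them as well. NOP53 and RRP45 were so under 5 each, RRP5 and RRP14 under 4 each and NOP15 under 3.

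NOP58, a core protein of the box C/D snoRNPs that guide methylation of ribosomal RNA, was at 13.91, 13.93 and 13.86 in the deletion and 13.92, 13.88 and 13.91 in the wild type, and its change of -0.0019 had a 95% interval of -0.084 to 0.080. NOP1, the methyltransferase of these particles (fibrillarin in humans), had a change of 0.0098, and NOP56, the partner of Nop58, one of -0.046. NOP10, of the box H/ACA snoRNPs that guide pseudouridylation, was at -0.0057. The probe sets of NOP58, NOP1, NOP56 and NOP10 are bright, with mean levels of 13.13 to 13.90, where arrays can compress differences. RRP9, a U3-specific protein, had a change of -0.042, and RRP36, an early factor of the small subunit, one of -0.14 with the wide interval of -0.30 to 0.026.

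Of the 17 other small subunit factors 1 passed the test. IMP4, whose protein joins the U3 snoRNA to the precursor together with Imp3 and Mpp10, was at 12.08, 12.08 and 11.99 in the deletion and 12.21, 12.14 and 12.24 in the wild type. All deletion arrays lay below all wild-type arrays, and IMP4 fell by 0.15 on the log2 scale (SE 0.045, limma adjusted p = 0.047). This call is marginal: leaving out any 1 of the arrays except wild-type replicate 2 gave an adjusted p of 0.0671 to 0.135, and leaving out that one gave 0.0305. The transcripts of its 2 partners showed no such change, since IMP3 was at 0.025 (95% interval -0.076 to 0.13) and MPP10 at -0.0074.

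Among the rest of these small subunit genes, NOP9, an RNA-binding protein with Pumilio repeats, had the highest change of 0.062, with levels of 11.02, 10.99 and 10.96 in the deletion and 11.01, 10.81 and 10.98 in the wild type. The groups overlapped, with wild-type replicate 2 the lowest array. RRP5, a large scaffold protein needed for both subunits, was at 12.12, 12.17 and 12.20 in the deletion and 12.35, 12.27 and 12.26 in the wild type, a change of -0.13 (SE 0.041, adjusted p = 0.0578). NOP19, needed for the placing of Utp25 in the processome, was at 10.26, 10.43 and 10.24 in the deletion and 10.48, 10.36 and 10.37 in the wild type, with overlapping groups and a change of -0.091. UTP20 and UTP23 were at -0.12 and -0.13, and the helicase gene RRP3 was at 0.052.

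The 20 large subunit factors gave 0 calls, with 19 of 20 changes below 0 and a median of -0.067. NOP53, whose protein docks Mtr4 and the exosome onto the maturing large subunit, had the largest change of all 62. It was at 11.44, 11.36 and 11.45 in the deletion and 11.68, 11.48 and 11.59 in the wild type, a change of -0.16 (SE 0.057, limma adjusted p = 0.0717). Wild-type replicate 2 was again the lowest wild-type array, 0.026 above the nearest deletion array. RRP14, needed for both subunits, was at 12.69, 12.77 and 12.69 in the deletion and 12.84, 12.78 and 12.85 in the wild type (change -0.11, adjusted p = 0.0828).

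NOP15, an RNA-binding protein of early large subunit particles, was at 12.55, 12.51 and 12.47 in the deletion and 12.63, 12.56 and 12.68 in the wild type. The groups were 0.011 apart at their nearest arrays, and the change was -0.11 (limma adjusted p = 0.0992). NSA2, which enters the particles late in the nucleus, had the highest change of this group, 0.018, with 12.89, 12.87 and 12.82 in the deletion and 12.88, 12.82 and 12.83 in the wild type. The methyltransferase genes NOP2 and RRP8 were at -0.0057 and -0.068. RLP7 and RLP24, which resemble the ribosomal proteins L7 and L24 and hold places on the particle during assembly, were at -0.051 and -0.032. NOC2 and NOC3 of the nucleolar exchange complexes were at -0.080 and -0.079, and NOC4, their small subunit relative, at -0.083. RRP15 and NOC4 are the only 2 of the 62 that lie next to each other in the R64 gene table, and RRP15 was at -0.027.

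The 7 exosome genes were centred near 0, with a median of -0.021 and 0 past the threshold. RRP45, a subunit of the barrel, was at 11.77, 11.83 and 11.69 in the deletion and 11.97, 11.85 and 11.90 in the wild type, a change of -0.14 (SE 0.050, limma adjusted p = 0.0747) with groups 0.018 apart. RRP42, a neighbour in kind within the same barrel, was at 11.978, 12.005 and 11.991 in the deletion and 11.971, 11.914 and 11.999 in the wild type, with overlapping groups and a change of 0.030 (95% interval -0.055 to 0.12). RRP43 and RRP46 of the barrel were at -0.069 and -0.021, RRP4 and RRP40 of the cap at 0.0056 and -0.011, and RRP6, the nuclear exonuclease, at -0.048.

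In all, 13 of the 62 genes had deletion values wholly below the wild type and 1, UTP22, wholly above. These shares, 21% and 1.61%, together 22.6%, stand beside 19.3% and 27.4%, together 46.7%, over all tested probe sets. The share lower is thus near the background, and the share higher below it.

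**Figure D4:**
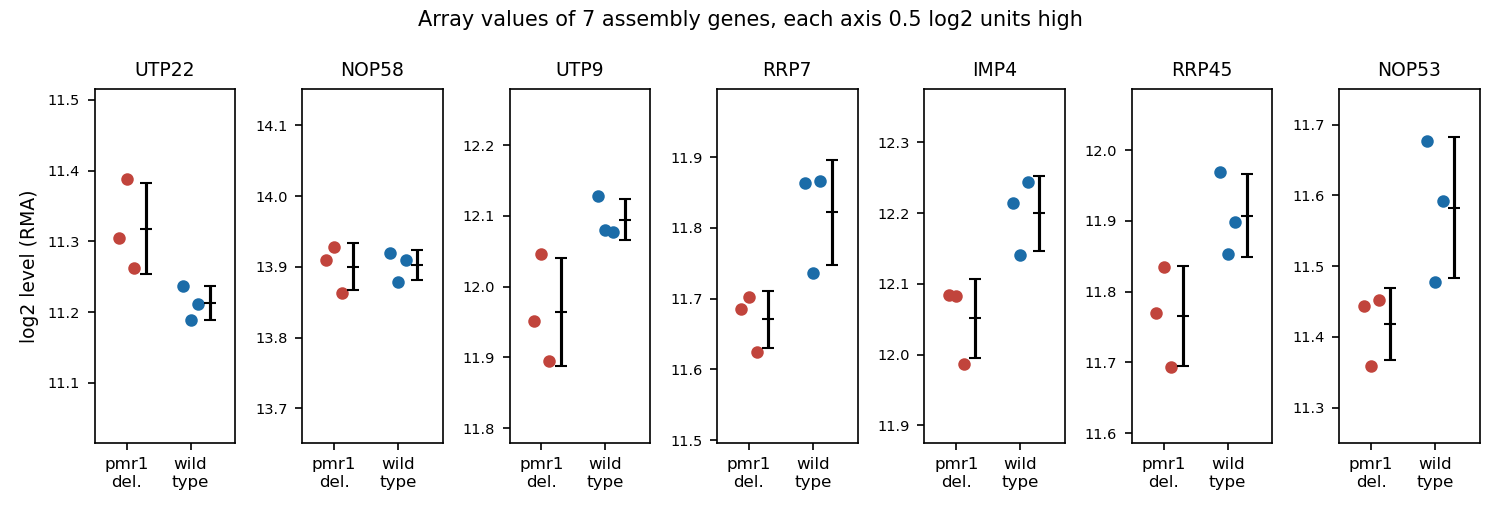
Array values of 7 assembly genes on the log2 scale, pmr1 deletion left and wild type right in each panel, with mean and SD (n = 3) beside the points; every axis spans 0.5 log2 units. Only IMP4 passed an adjusted p of 0.05; the strains are separate for all shown genes except NOP58.

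Assembly genes with names outside these families gave the same picture. Of 16 partners in the same complexes, 0 passed the limma test in either direction, 2 had an unadjusted p under 0.05, and their changes ran from -0.13 to 0.069. For UTP-A, NAN1 was at 0.069, and for UTP-B, PWP2 and DIP2 were at -0.072 and -0.067. The box C/D protein SNU13 was at -0.025, and the H/ACA proteins CBF5, GAR1 and NHP2 at -0.058, -0.056 and -0.0071. MAK21, the partner of Noc2, was at -0.088. Among exosome partners, SKI6, MTR3, CSL4 and DIS3 lay between -0.012 and 0.032, the Rrp6 cofactors LRP1 and MPP6 at -0.13 and -0.091, and the helicase MTR4 at -0.049.

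Of 33 other small subunit factors 0 were higher and 1 was lower. FAL1, a helicase gene, fell by 0.19 (SE 0.048, limma adjusted p = 0.0283), with levels of 10.11, 10.11 and 10.06 in the deletion and 10.36, 10.20 and 10.29 in the wild type. Of 53 other large subunit factors 0 were higher and 1 was lower, PUF6, an RNA-binding protein that also represses ASH1 mRNA. It fell by 0.14 (SE 0.036, adjusted p = 0.0268), with 12.78, 12.71 and 12.71 in the deletion and 12.89, 12.88 and 12.86 in the wild type. Over these 3 lists, 2 of 102 genes were called (1.96%, against 29.2% of all tested probe sets). Of the 102 changes 70 were below 0, beside 46.8% over all tested probe sets, and the median was -0.030.

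A further check used the 15 measured genes that carry a name of these families only as a synonym in the gene table, a set defined after the data were seen. It shares 7 genes with the complex partners and 5 with the lists of other factors. In it 1 gene was higher and 0 were lower (6.67% called, against 29.2% of all tested probe sets). PIH1, which the table also calls NOP17 and which works with chaperones in the assembly of box C/D snoRNPs, rose by 0.16 (SE 0.039, limma adjusted p = 0.0224). The others ran from -0.18 for RIO1, also RRP10, to 0.069 for NAN1, also UTP17.

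Of 17 genes of RNA polymerase I and its initiation factors 0 were higher and 2 lower, 11.8% called against 29.2% of all tested probe sets. The share lower was near the 11.7% lower over all, and the share higher was 0 against 17.5%. The median of the 17 was -0.045 and their median absolute change 0.048. RRN10, a subunit of the upstream activating factor, fell by 0.25 (SE 0.048, limma adjusted p = 0.009), with 9.28, 9.11 and 9.18 in the deletion and 9.46, 9.43 and 9.43 in the wild type. RPC19, shared by polymerases I and III, fell by 0.12 (adjusted p = 0.0388). Of 12 genes for regulators of the ribosome biogenesis genes 0 were higher and 2 lower (16.7%, against the same 29.2%). Their median absolute change of 0.099 was close to the 0.096 over all tested probe sets. RAP1, the general factor at ribosomal protein genes and telomeres, was at 10.21, 10.32 and 10.17 in the deletion and 10.47, 10.44 and 10.48 in the wild type and fell by 0.23 (SE 0.046, adjusted p = 0.0105). REB1, which binds upstream of many genes and at the ribosomal DNA, fell by 0.17 (SE 0.034, adjusted p = 0.0124). The activator SFP1 and the repressor genes DOT6 and TOD6 were at -0.0064, 0.017 and -0.11 and did not pass the test.

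**Figure D5:**
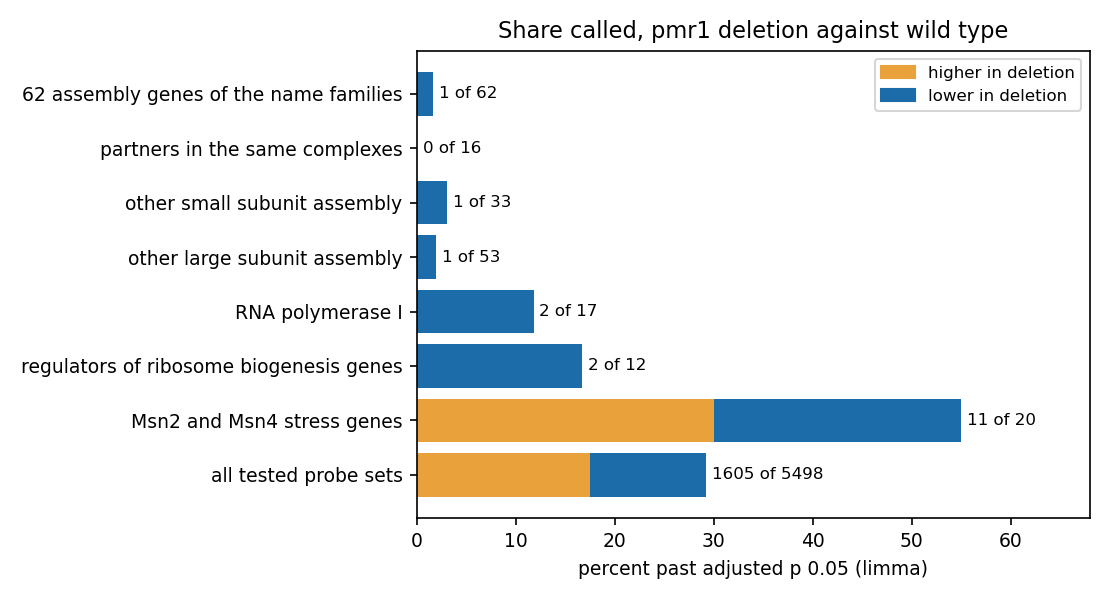
Percent of each gene list past a limma adjusted p of 0.05, split into higher and lower in the pmr1 deletion, with the count beside each bar. The 62 assembly genes have 1 of 62, against 11 of 20 stress genes and 1605 of 5498 tested probe sets.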

How the data were processed

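Transcript levels of 3 deletion and 3 wild-type samples were analysed. The deposited table holds log2 values of 10928 probe sets, made by the authors with GCOS, RMA and limma per the submitters' processing notes, with no versions given. RMA involves background correction, quantile scaling and a summary over the probes of a set. Array levels compress large folds and differences between very bright probe sets. No value is missing, and no column belongs to a sample of another series. For arrays no depth is given, and their number limits the precision.

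Groups were taken from the titles. The 5498 probe sets whose gene identifiers match the R64 gene table were fitted with limma 3.58.1 in R 4.3.3 (lmFit, eBayes, two-sided), adjusted by Benjamini-Hochberg over all of them, threshold 0.05, and tested on simulated data. Each gene of a list was represented by its highest-mean probe set. A rule for naming genes took, per group, up to 4 called members with the largest change, and the brightest and dimmest probe set. It also took PMR1, the complex partners, and up to 3 called genes of each other list. The other named genes fall outside this rule, many of them picked with their values in view. Members, lists and rules were chosen with earlier results of these data known. No source used here names the array's genome build, so no coordinates are printed. The order of genes is that of the R64 gene table, and no promoter or protein sequences were at hand. Alternatives were renewed scaling in 3 ways, robust priors with a trend, 2 filters on probe sets, all probe sets, array weights, gene means, the replicate number as a block, and omission of each array. Plots were made in Python 3.11.15 (matplotlib 3.10.9).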

Additional observations from a re-analysis of the deposited data

How the results depend on the processing

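Under all 16 alternatives 0 of the 62 genes were higher, the median stayed below 0 (-0.072 to -0.032), the share called was below that of all tested probe sets (0% to 35.5% against 7.99% to 45.9%), all 62 intervals lay within 1.3-fold, and 52 to 61 lay within 1.2-fold, counts added after the data were seen. The number lower, 1 as reported, was 4 with arrays centred on the median, 9 each with quantile and cyclic loess scaling, 8 with a trend and robust priors, 22 with array weights, 0 with the whole array in the test and 0 to 5 when 1 array was left out. Over all probe sets the counts higher and lower were 963 and 642. They were 548 and 325 with the whole array in the test, and the number lower was 1087 with array weights. Leaving out 1 array gave 599 to 1041 higher and 373 to 629 lower. Array weights gave deletion replicate 1 a weight of 4.79 and wild-type replicate 2 one of 0.367. The cause of these shifts was not tested. IMP4 had adjusted p of 0.0149 to 0.161 over the alternatives, the highest with the whole array. NOP19 was at -0.16 (adjusted p = 0.0286) with array weights. NOP58 ranged from -0.016 to 0.017 when 1 array was left out and changed sign without deletion replicate 3 (0.017) or wild-type replicates 1 (0.0065) or 3 (0.0014), at adjusted p of 0.802 to 0.985.

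The labels number replicates 1 to 3 in both strains without saying that a number marks a shared day or batch. The deviations of same-numbered arrays correlated at -0.138, 0.00032 and 0.0807, and those of differently numbered arrays at -0.137 to 0.146. With 3 arrays per group these values cannot tell whether a number marks a shared batch. With the replicate block 1 of the 62 genes was lower, NOP53 (adjusted p = 0.0467) in place of IMP4 (adjusted p = 0.0982).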

Other observations

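The array also carries 21 named probe sets of the same name families for the fission yeast, among them those for utp10, nop14, rrp6 and rlp24. On the 6 arrays 0 of the 21 were above the array background on any array, and their median level was 3.07, beside 3.24 over all S. pombe probe sets.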
